A study of Homo sapiens with 4 samples.

Results

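Most of the 9 transcripts described here encode enzymes that supply NADPH, or that share the pentose phosphate pathway with those that do. ME2 encodes a malic enzyme that passes electrons mainly to NAD. The 9 are PGLS, PGD, RPIA, TKT, TALDO1, ME1, ME2, IDH1 and IDH2. They were taken by symbol, and all 9 were found once among the 28395 rows of the gene table and passed the filter on low counts. The cells were A375, an established human melanoma line, labelled wild type (WT) in genotype. They were kept for 6 h in medium with serum that held either 0.01% olive oil (2 libraries) or 0.01% ozonated olive oil (2 libraries), and no library of cells without oil was used here. The libraries of each oil carry the numbers 1 and 2, and nothing in the labels ties a number to a separate culture or day. The p-values below thus rest on a spread between libraries that may be purely technical. The difference of number 2 from number 1 was in part shared by the oils (r = 0.672 over 14841 genes, which are not independent replicates). The main fit holds no block for the number, and what it stands for was not tested.

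NADPH is the electron donor that cells use to keep glutathione and thioredoxin reduced and to build fatty acids and sterols. The oxidative branch of the pentose phosphate pathway makes it in the cytosol from glucose 6-phosphate, and the reversible branch reshuffles the sugar phosphates back to glycolysis or on to ribose for nucleotides. Malic enzymes can make NADPH from malate and isocitrate dehydrogenases from isocitrate, with separate genes for the cytosolic and the mitochondrial enzyme. The mitochondrial ME2, however, works mainly with NAD. Several of these genes, among them PGD, TKT, TALDO1 and ME1, are known targets of NRF2, the transcription factor that answers oxidants and electrophiles.

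NRF2 binds the antioxidant response element, whose core was searched here as TGACNNNGC on both strands of the RefSeq promoters of GRCh38.p14 (250 bases before to 50 bases after a start site). The core was present in a promoter of 3 of the 9 genes (PGD, ME1 and IDH1), and in 13.3% of all 35116 promoters in the table. The members are counted here by gene and the background by promoter, so the 2 shares are not directly comparable. IDH1 has 2 listed start sites, of which 1 had a match, and PGLS, RPIA, TKT, TALDO1, ME2 and IDH2 had no such letters in this window. The only IDH2 window listed, chr15:90100572-90100871 on the minus strand, lay inside the annotated gene. It did not reach the 5′ end of IDH2 at 90102468, which was therefore not searched. The promoters with a match are shown so that each can be read beside its gene's values, with the matching letters in capitals and the strand of the gene from 5′ to 3′. The ME1 promoter spans chr6:83431002-83431301 on the minus strand, the PGD promoter chr1:10398814-10399113 on the plus strand, and the IDH1 promoter chr2:208255022-208255321 on the minus strand.
ME1: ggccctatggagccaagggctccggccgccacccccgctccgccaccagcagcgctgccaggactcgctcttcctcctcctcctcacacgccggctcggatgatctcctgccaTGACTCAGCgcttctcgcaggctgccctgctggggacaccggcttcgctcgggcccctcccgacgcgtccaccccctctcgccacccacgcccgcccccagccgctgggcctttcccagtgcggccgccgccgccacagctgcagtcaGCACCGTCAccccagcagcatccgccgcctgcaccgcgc
PGD: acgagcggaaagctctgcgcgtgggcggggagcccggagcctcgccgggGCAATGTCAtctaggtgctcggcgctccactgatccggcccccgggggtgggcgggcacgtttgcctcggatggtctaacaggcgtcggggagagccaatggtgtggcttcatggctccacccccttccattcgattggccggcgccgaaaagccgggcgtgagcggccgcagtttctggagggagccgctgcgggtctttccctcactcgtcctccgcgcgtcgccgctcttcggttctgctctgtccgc
IDH1: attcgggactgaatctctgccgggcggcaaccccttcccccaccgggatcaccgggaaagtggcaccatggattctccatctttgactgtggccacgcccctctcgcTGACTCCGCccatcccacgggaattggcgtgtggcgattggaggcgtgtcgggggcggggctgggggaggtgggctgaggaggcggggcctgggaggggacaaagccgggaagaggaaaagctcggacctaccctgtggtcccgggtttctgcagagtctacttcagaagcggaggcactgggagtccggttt
The ME1 window held 2 matches, TGACTCAGC on the gene's strand beginning 137 bases before the start site and GCACCGTCA, which reads as the core on the other strand, beginning at base 12 of the transcript. In IDH1 the match TGACTCCGC began 143 bases before the start site. In PGD the letters GCAATGTCA, again the core on the other strand, began 201 bases before it. A match of letters is a description and not a measured binding site.

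Library totals ran from 22245807 to 27772480 counts, and 3 counts in a library correspond to 0.106 to 0.139 counts scaled per 1e6 (CPM), a limit that covers counting error only. Several members differed between the numbers within each oil, so every difference between the oils is given overall and within each number. Of 8 genes of the melanocyte lineage, SOX10, MITF and S100B lay above 1 CPM in all 4 libraries, while TYR had no counts, PMEL and MLANA few, and the summed level was 321 to 337 CPM with olive oil and 322 to 395 CPM with the ozonated oil. The 5 keratinocyte markers summed to 97.6 to 107 CPM and 90.1 to 101 CPM, with KRT10, KRT14 and KRT15 above 1 CPM throughout and KRT1 at no more than 1 count. Fibroblast (6 genes), blood cell (5 genes) and endothelial markers (3 genes) summed to at most 7.26 CPM, 4.45 CPM and 3.36 CPM in any library, and CD3E and HBB had no counts. In bulk RNA such as this, fewer cells of a kind and less RNA per cell cannot be told apart.

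The comparison of the oils asked whether transcripts for NADPH supply differ after 6 h with the ozonated oil. The groups separated in ME1, TALDO1 and TKT, which were 1.325-fold, 1.212-fold and 1.224-fold higher in the fit and whose ozonated libraries both lay above both olive oil libraries. Of all tested genes, 15.3% lay above in this way and 15.7% below. PGD, PGLS, RPIA, ME2 and IDH1 lay within 0.12 of 0 on the log2 scale, and IDH2 varied more with the number than with the oil. No member passed the quasi-likelihood test of edgeR, adjusted by Benjamini-Hochberg over all genes (adjusted p = 1 for each). In that test 0% of 14841 genes were called (smallest adjusted p = 0.748), and 570 genes, or 3.84%, had an unadjusted p under 0.05, among them the members ME1 and TALDO1. On the same genes DESeq2 called 65 and the edgeR exact test 35, none of them a member, and limma-voom called 0. None of these fits holds a block for the replicate number. A fit with that block did call members and is given in the closing section, since the labels do not pair the libraries.

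**Figure D1:**
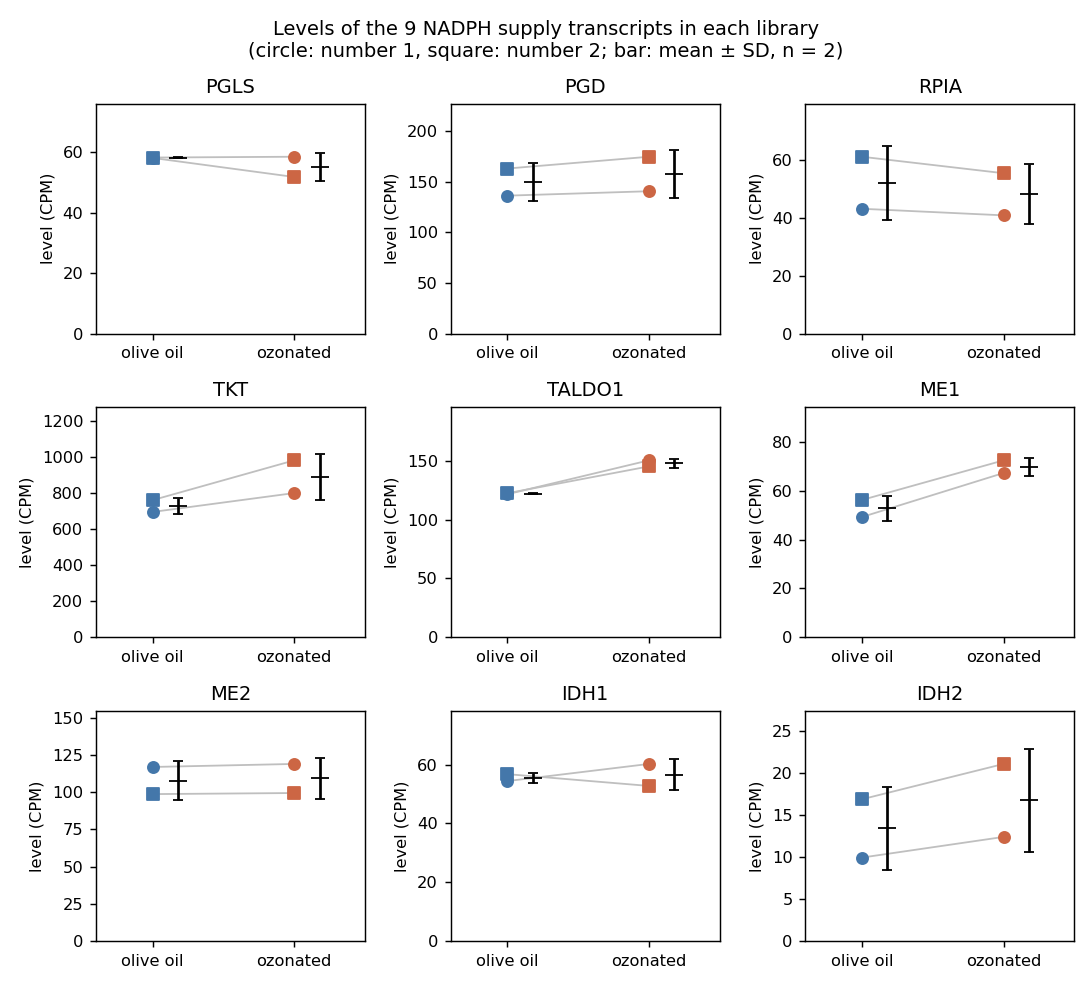
Level of each member (CPM, y axis from 0) in the 2 libraries of each oil. Circles are number 1 and squares number 2, grey lines join libraries of the same number, and black bars give the mean ± SD (n = 2). In TKT, TALDO1 and ME1 both ozonated libraries lie above both olive oil libraries, and in the other 6 panels the oils overlap.

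ME1, the cytosolic malic enzyme, which turns malate into pyruvate and makes NADPH (ENSG00000065833, chr6:83210402-83431051, GRCh38), measured 49.2 CPM in olive oil library 1, 56.2 CPM in olive oil library 2, 67.2 CPM in ozonated library 1 and 72.4 CPM in ozonated library 2. The lowest ozonated library thus stood above the highest olive oil library. Group means were 52.7 ± 4.93 CPM (SD, n = 2) and 69.8 ± 3.66 CPM (SD, n = 2). The log2 fold change was 0.41 ± 0.12 (SE; 95% interval 0.089 to 0.722; edgeR, unadjusted p = 0.0218, which does not pass after adjustment), and 7.76% of the tested genes had a higher one. Within number 1 the log2 difference was 0.45, with a 95% counting interval of 0.345 to 0.555, and within number 2 it was 0.37 (0.263 to 0.469). These exact binomial intervals compare 1 library with 1 library and cover counting error only, here and below.

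ME2, the mitochondrial malic enzyme that passes electrons mainly to NAD (ENSG00000082212, chr18:50879118-50954257), showed no such separation. It measured 117.0 and 98.8 CPM under olive oil against 119 and 99.5 CPM under ozonated oil. Its log2 fold change was 0.02 ± 0.15 (SE; 95% interval -0.370 to 0.407), with 0.03 and 0.01 within the numbers, and it took the other sign (-0.024) when libraries were scaled by total counts only. The ratio of ME1 to ME2 was 0.421 and 0.569 under olive oil against 0.565 and 0.728 under ozonated oil, so the groups overlapped narrowly. The log2 ratio was higher by 0.39 with the ozonated oil (0.43 within number 1 and 0.36 within number 2; two-sided exact permutation p = 0.667, where 0.333 is the smallest that 2 against 2 libraries allow).

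Of the pentose phosphate members, only TALDO1 and TKT had both ozonated libraries above both olive oil libraries. These enzymes of the reversible branch exchange carbon fragments between sugar phosphates. In the list of other pentose phosphate and ribose genes, 2 of 12 tested genes also stood above and 3 stood below. Of all tested genes, 15.3% stood above and 15.7% below. TALDO1, transaldolase (ENSG00000177156, chr11:747464-765012), measured 121.6 and 122.4 CPM under olive oil against 150.4 and 145.3 CPM under ozonated oil. The libraries of each oil lay close together and the oils did not overlap. Its means were 122.0 ± 0.599 CPM (SD, n = 2) and 147.8 ± 3.63 CPM (SD, n = 2). The log2 fold change was 0.28 ± 0.10 (SE; 95% interval 0.017 to 0.537; unadjusted p = 0.0407 by edgeR), with 0.31 (0.239 to 0.375) within number 1 and 0.25 (0.176 to 0.318) within number 2.

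TKT, transketolase, which needs thiamine diphosphate (ENSG00000163931, chr3:53224712-53256022), measured 695.4 and 760.9 CPM under olive oil against 800.2 and 981.7 CPM under ozonated oil. Both ozonated libraries were the higher ones, and number 2 exceeded number 1 in each oil. The log2 fold change was 0.29 ± 0.14 (SE; 95% interval -0.072 to 0.654; unadjusted p = 0.0941 by edgeR). It was 0.20 (0.174 to 0.232) within number 1 and 0.37 (0.34 to 0.395) within number 2, values whose counting intervals did not overlap. Without ozonated olive oil replicate 2 the fitted value was 0.136. The related gene TKTL1 had 3 to 9 counts per library and TKTL2 none.

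RPIA, the isomerase that makes ribose 5-phosphate (ENSG00000153574, chr2:88691673-88750929), differed mainly by number. It measured 43.0 and 61.0 CPM under olive oil against 40.8 and 55.3 CPM under ozonated oil, and was the only member lower with the ozonated oil within both numbers. The log2 fold change was -0.11 ± 0.24 (SE; 95% interval -0.726 to 0.496), with -0.08 (-0.202 to 0.045) and -0.14 (-0.250 to -0.033) within the numbers.

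Both members that belong to the oxidative branch showed small differences. The members do not cover its first step, from glucose 6-phosphate. PGD, which makes NADPH as it turns 6-phosphogluconate into ribulose 5-phosphate (ENSG00000142657, chr1:10399064-10420511), measured 136.1 and 162.8 CPM under olive oil against 140.5 and 174.5 CPM under ozonated oil. The number moved PGD more than the oil did. Its log2 fold change was 0.08 ± 0.16 (SE; 95% interval -0.345 to 0.495), with 0.05 (-0.022 to 0.113) and 0.10 (0.036 to 0.163) within the numbers. PGLS, the lactonase of the step before it (ENSG00000130313, chr19:17511649-17521288), measured 58.2 and 58.1 CPM under olive oil against 58.5 and 51.8 CPM under ozonated oil. Only ozonated library 2 stood below the others. The log2 fold change of PGLS was -0.08 ± 0.12 (SE; 95% interval -0.378 to 0.225), with 0.01 and -0.17 within the numbers.

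IDH1, the NADP-dependent isocitrate dehydrogenase of cytosol and peroxisomes (ENSG00000138413, chr2:208236227-208255071), measured 54.4 and 56.8 CPM under olive oil against 60.3 and 52.8 CPM under ozonated oil. The ozonated libraries held both the highest and the lowest value. Within number 1 the log2 difference was 0.15 (0.042 to 0.252) and within number 2 -0.11 (-0.218 to 0.006), and the fitted value was 0.02 ± 0.12 (SE; 95% interval -0.289 to 0.336), or -0.019 under scaling by total counts. The antisense gene IDH1-AS1, whose exons overlap those of IDH1, had 4 to 12 counts per library, against 1142 to 1538 for IDH1.

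IDH2, the mitochondrial NADP-dependent enzyme (ENSG00000182054, chr15:90083045-90102468), had the fewest counts of the 9. It measured 9.95 and 16.9 CPM under olive oil against 12.4 and 21.1 CPM under ozonated oil, from 281 to 457 counts. Each ozonated library stood above the olive oil library of its own number, while the oils overlapped across numbers. The log2 fold change was 0.32 ± 0.38 (SE; 95% interval -0.667 to 1.307), with 0.32 (0.078 to 0.561) and 0.32 (0.131 to 0.512) within the numbers. The ratio of IDH1 to IDH2 was 5.47 and 3.36 with olive oil and 4.86 and 2.50 with the ozonated oil, a log2 difference of -0.30 between group means (-0.17 and -0.43 within the numbers; two-sided exact permutation p = 0.667).

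**Figure D2:**
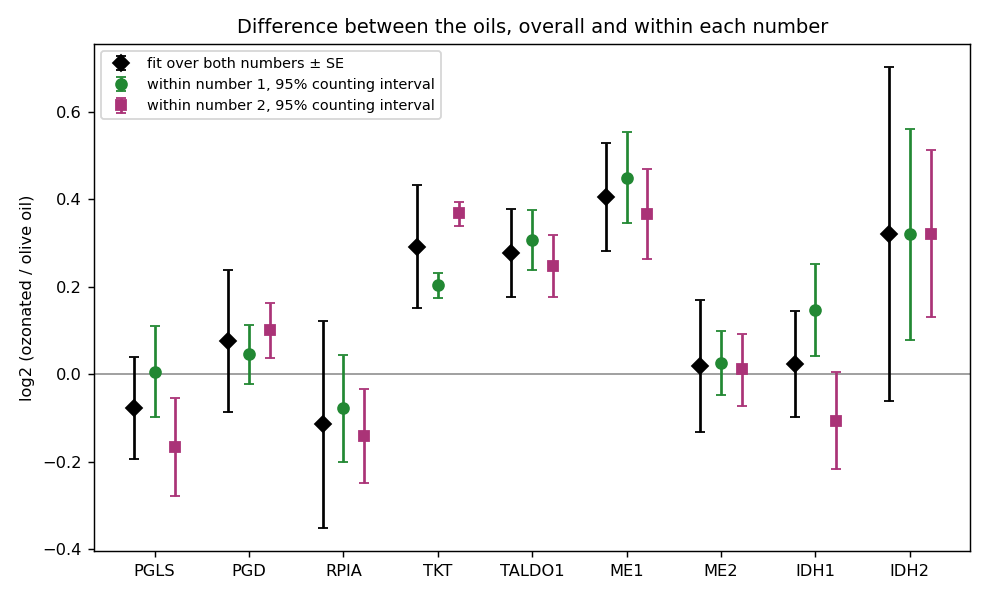
Log2 ratio of ozonated to olive oil for each member. Black diamonds are the edgeR fit over all 4 libraries ± SE, green circles and purple squares the differences within number 1 and number 2 with 95% counting intervals. ME1, TALDO1, TKT and IDH2 lie above 0 within both numbers with intervals clear of 0, and PGLS and IDH1 take opposite signs.

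As a group, 6 of the 9 members were higher with the ozonated oil within both numbers (PGD, TKT, TALDO1, ME1, ME2 and IDH2), where 31.6% of all tested genes were. RPIA was lower within both (31.1% of all genes), and PGLS and IDH1 went opposite ways (37.2%). Both ozonated libraries stood above both olive oil libraries for 3 members and below them for 0, against 15.3% and 15.7% of all tested genes. The median log2 fold change was 0.075 over the members (range -0.11 to 0.41) and 0 over all tested genes, with member medians of 0.147 within number 1 and 0.10 within number 2. Leaving out replicate 1 or 2 of olive oil gave a member median of -0.009 or 0.212, and leaving out replicate 1 or 2 of the ozonated oil gave 0.223 or 0.116. Under scaling by total counts the median was 0.03, and 5 members were higher within both numbers. With 9 genes chosen when results were already known, these counts describe the list and carry no test.

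Much of the spread within an oil followed the number. IDH2 was 1.70-fold higher in number 2 than in number 1 in both oils, and RPIA 1.42-fold with olive oil and 1.36-fold with the ozonated oil. PGD was 1.20-fold and 1.24-fold higher, TKT 1.09-fold and 1.23-fold, and ME1 1.14-fold and 1.08-fold. ME2 went the other way, at 0.844 and 0.836 of its level in number 1. TALDO1 had log2 ratios of 0.01 with olive oil and -0.05 with the ozonated oil, and its counting intervals included 0 in both. For PGD, RPIA, ME2 and IDH2 the difference between the numbers within each oil was larger than the difference between the oils within each number, and for ME1 and TALDO1 the difference between the oils was the larger one in every case. What the number stands for was not tested.

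**Figure D3:**
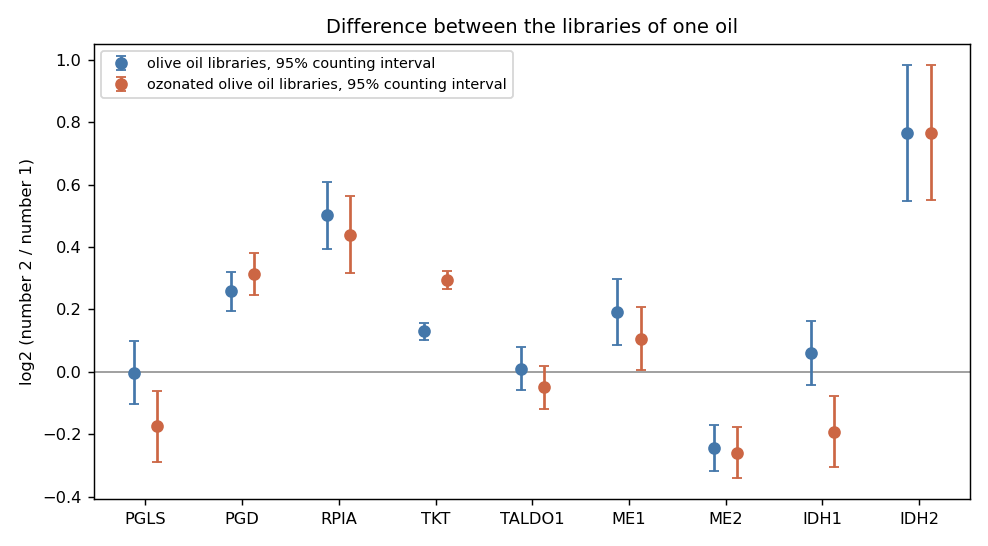
Log2 ratio of number 2 to number 1 for each member within the olive oil libraries (blue) and the ozonated olive oil libraries (orange), with 95% counting intervals. IDH2 and RPIA lie highest in both oils, ME2 lies below 0 in both, and TALDO1 lies at 0 within counting error.

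Levels were compared between members per kilobase of the longest principal transcript of GENCODE 29, so the order depends on that choice of transcript. TKT was the most abundant by far, at 231 to 326 CPM per kilobase over the 4 libraries. TALDO1 (90.3 to 112) and PGD (72.2 to 92.6) followed and overlapped, and PGLS (50.4 to 56.9) came next. RPIA (22.1 to 33.0) and IDH1 (21.6 to 24.7) overlapped as well, and ME1 (14.6 to 21.5) lay at the lower edge of IDH1. IDH2 (3.69 to 7.84) was the lowest, below IDH1 in every library. The place of ME2 could not be fixed, since its principal transcript of 9415 bases gave 10.5 to 12.6, below ME1, and its next longest coding transcript of 2492 bases gave 39.6 to 47.8, above ME1.

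Genes around the pathway gave a background for these values, and again none passed the adjusted test. Of 12 tested genes of the pentose phosphate and ribose list, 3 were higher and 4 lower within both numbers (31.6% and 31.1% of all tested genes). The median log2 fold change of that list was -0.03. SHPK, which phosphorylates sedoheptulose, had -0.17 ± 0.15 (SE), PGM2, a phosphopentomutase with the highest CPM of the list, -0.02 ± 0.11, and the gluconate kinase gene IDNK -0.32 ± 0.33. RBKS, ribokinase, had 0.79 ± 0.60, with levels of 0.556 ± 0.315 CPM (SD, n = 2) under olive oil and 0.969 ± 0.193 CPM (SD, n = 2) under the ozonated oil.

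Other sources of NADPH were near 0 as a list. The 11 tested genes cover folate metabolism, the transhydrogenase, the NAD kinases and a further malic enzyme gene, ME3 (0.01 ± 0.23, SE). Of the 11, 2 were higher and 3 lower within both numbers (31.6% and 31.1% of all tested genes). The median was -0.01 and took either sign as single libraries were left out. NADK2, the mitochondrial NAD kinase that makes NADP, averaged 43.2 ± 2.58 CPM (SD, n = 2) under olive oil and 34.1 ± 3.02 CPM (SD, n = 2) under the ozonated oil, with no overlap of the oils. Its log2 fold change was -0.34 ± 0.14 (SE; unadjusted p = 0.0547 by edgeR), with -0.31 and -0.37 within the numbers. MTHFD2L, a mitochondrial folate dehydrogenase, had 0.39 ± 0.23, SHMT1, the cytosolic serine hydroxymethyltransferase, -0.07 ± 0.13, and MTHFD2, with the highest CPM, -0.01 ± 0.39.

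The NAD-linked list, of dehydrogenases of isocitrate, malate, 2-oxoglutarate and glutamate, showed differences of at most 0.22 in either direction. So did the carriers and enzymes that feed citrate and malate to the cytosol. Over 8 NAD-linked dehydrogenases the median was -0.003, with IDH3A, a subunit of the mitochondrial NAD-dependent isocitrate dehydrogenase, at -0.11 ± 0.10, the 2-oxoglutarate dehydrogenase gene OGDH at -0.09 ± 0.15, the glutamate dehydrogenase gene GLUD1 at 0.14 ± 0.22 and the malate dehydrogenase gene MDH2, with the highest CPM, at -0.01 ± 0.17. Over 10 exchange genes the median was 0.05. There the citrate carrier SLC25A1 had 0.22 ± 0.11 with no overlap of the oils, the pyruvate carboxylase gene PC 0.19 ± 0.18 and ACLY, which splits citrate in the cytosol and had the highest CPM, 0.09 ± 0.11.

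Genes whose products use NADPH had a median of 0.20 with all 4 libraries. It was 0.122 once olive oil replicate 1 was left out. Once ozonated replicate 1 was left out it was 0.163, where the other NADPH sources had 0.174. Of 14 tested members, 10 were higher and 2 lower within both numbers (31.6% and 31.1% of all tested genes), and 2 had an unadjusted p under 0.05 by edgeR (3.84% of all tested genes). The list includes CYB5R1, of a family that takes electrons mainly from NADH. AIFM2, which encodes the ferroptosis suppressor FSP1 and reduces ubiquinone with NAD(P)H, averaged 41.6 ± 4.58 CPM (SD, n = 2) under olive oil and 61.2 ± 4.06 CPM (SD, n = 2) under the ozonated oil. Its log2 fold change was 0.56 ± 0.13 (SE; edgeR, unadjusted p = 0.00935). Glutathione reductase, GSR, had 0.34 ± 0.11, and the cytosolic thioredoxin reductase TXNRD1, with the highest CPM of the list, 0.52 ± 0.24. Both ozonated libraries stood above both olive oil libraries for 5 of the 14 (15.3% of all tested genes), these 3 among them. For the mitochondrial thioredoxin reductase TXNRD2 they stood below.

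**Figure D4:**
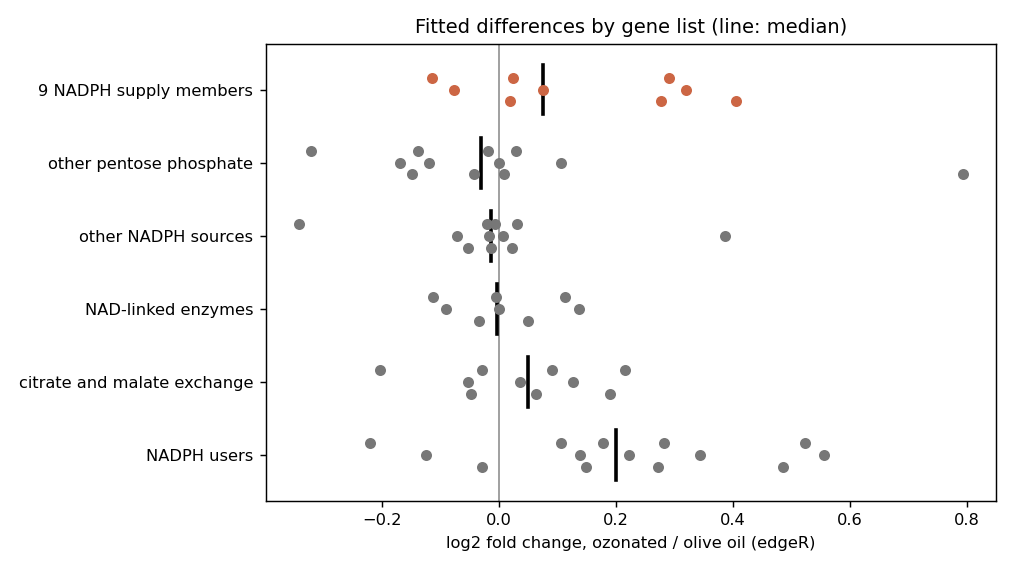
Fitted log2 fold change of the 9 members (orange) and of the tested genes of 5 lists around NADPH (grey), with the median of each list as a black line. The members' median is 0.075 and that of the NADPH users 0.20, while the other 4 lists have medians from -0.03 to 0.05.

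The genes whose pattern over the 4 libraries was most like that of a member were found by the root mean square difference of log2 CPM around each gene's mean, among 11083 genes with a mean log2 CPM no lower than 2. For ME1 these were PAIP2 (0.022), CLIP2 (0.024) and UBB (0.029), with log2 fold changes between the oils of 0.36, 0.43 and 0.42. For TALDO1 they were AGO4 (0.0058), IGF2BP3 (0.010) and BAG1 (0.011), all with log2 fold changes of 0.28 to 0.30. For PGD they were CHD1L (0.0051), IFT122 (0.0055) and NUP88 (0.0093), with log2 fold changes of 0.07. Close log2 fold changes follow from this choice of genes, and the likeness rests on 4 libraries alone.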

How the data were processed

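Messenger RNA was measured in 4 libraries of A375 cells. The deposited table holds raw counts per gene, 1 column per library. Per the submitters' processing notes, which give no roles, the build was hg38 and the tools included HISAT2 2.1.0, StringTie 1.3.4d and edgeR. How reads were counted, on which strand and with which annotation was not given in the sources used here. Reads of near-identical copies (pseudogenes of PGD, RPIA, TALDO1, ME2 and IDH1 are annotated) and of antisense genes may therefore not be separated.

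Counts were analysed with edgeR 4.0.16 in R 4.3.3 (filterByExpr, TMM, quasi-likelihood test, two-sided, Benjamini-Hochberg threshold 0.05, no block). SEs come from the F statistic, and 95% intervals use the fit's degrees of freedom. Within-number medians and counts use log2 CPM with a prior count of 2. The test was checked only on simulated data with larger changes than the members show and no difference between the numbers. Alternatives were other scalings and filters, DESeq2 1.42.0, limma-voom 3.58.1, the edgeR exact test, a block for the replicate number and each library left out. Named were all members, and of each list up to 3 genes of smallest p and the one of highest CPM. TXNRD2, CYB5R1 and ME3 were added after their values were seen. A few genes of the lists are not reported here by name. Members and lists were chosen with earlier results of these data known. Coordinates and promoters are RefSeq's on GRCh38.p14, the build of hg38.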

Additional observations from a re-analysis of the deposited data

How the results depend on the processing

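Scaling by total counts alone moved the median log2 fold change of all tested genes to -0.043, that of the members to 0.03, of the pentose phosphate list to -0.074, of the NAD-linked list to -0.046 and of the exchange list to 0.007, and turned ME2 to -0.024 and IDH1 to -0.019. The pentose phosphate list had -0.043 with no filter and -0.044 with at least 1 CPM in 2 libraries. Over all genes DESeq2 called 65 and the edgeR exact test 35, with 0 members in each.

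Same-numbered libraries deviated together (r = 0.672 over 14841 genes, which are not independent replicates), but the labels give no pairing. With the replicate number as a block, edgeR called 841 genes, 2 of them members: TKT (log2 fold change 0.285, adjusted p = 0.00908) and ME1 (0.408, adjusted p = 0.0109). TALDO1 had an adjusted p of 0.0519 there, and IDH2 of 0.239.

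Leaving out each library in turn makes the numbers unequal between the oils, and the fit assumes that a lone library varies as much as the other oil. The call count then ran from 0 to 4, with 0 members. Members ranged as follows: ME1 from 0.311 to 0.506, TALDO1 from 0.252 to 0.302, TKT from 0.136 to 0.431, PGD from -0.09 to 0.223, PGLS from -0.167 to 0.008, RPIA from -0.351 to 0.16, ME2 from -0.117 to 0.144, IDH1 from -0.076 to 0.116 and IDH2 from -0.113 to 0.754. Their median ran from -0.009 (without olive oil replicate 1) to 0.223. List medians ran from -0.054 to -0.005 (pentose phosphate), -0.181 to 0.174 (other sources), -0.056 to 0.047 (NAD-linked), 0.029 to 0.083 (exchange) and 0.122 to 0.274 (NADPH users). The log2 ratio of ME1 to ME2 differed between the oils by 0.172 to 0.608 and that of IDH1 to IDH2 by -0.779 to 0.179. The causes of these moves were not tested. The direction of ME1, TALDO1 and TKT was the same in all 12 alternatives.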
